A study of Mus musculus with 6 samples.

Results

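Ribosomal protein genes were examined in ureteric bud cells with a conditional knockout of Ash2l and in control cells. They were chosen by symbol. The cytosolic class holds Rpl and Rps genes with Rpsa, Rplp0, Rplp1 and Rplp2, without the Rps6k kinases and the genes named as pseudogenes. The mitochondrial class holds every Mrpl and Mrps gene. Together they were 161 of the 17189 genes listed, with 83 in the cytosolic and 78 in the mitochondrial class. Of these, 159 had enough reads to be tested, 81 cytosolic and 78 mitochondrial. The 2 left out had almost no reads. Rpl3l, the muscle form of Rpl3, had 1, 5 and 0 counts in cKO libraries, and 0 in every control library. Rpl32l had 6, 1 and 0 counts in cKO libraries, and 0, 3 and 4 counts in control libraries. The symbol rule also took Rpl6l, Rpl22l1, Rpl7l1 and Rps27l, which are paralogues of core ribosomal proteins, and it left out genes such as Fau and Rack1, whose products are ribosomal proteins under other names.

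The cells were ureteric bud cells sorted by fluorescence from mouse embryos at E16.5. The conditional knockout (cKO) carried Hoxb7Cre-GFP and was Ash2l F/F, and the control carried the same transgene and was Ash2l F/+. All 6 libraries, 3 per genotype and numbered as biological replicates, thus carry Hoxb7-driven Cre, which acts in the ureteric bud lineage, and the controls also have 1 floxed allele. The sources used here give neither the floxed exons nor whether embryos were pooled for a replicate, so the p-values reflect only how far these libraries differ, which may be technical.

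A ribosome joins a large and a small subunit, each built of ribosomal RNA and many proteins. Cytosolic ribosomes translate nuclear-encoded messenger RNAs, and their protein genes are among the most strongly transcribed housekeeping genes. Mitochondrial ribosomes translate the few proteins of the mitochondrial genome, and all of their proteins are encoded in the nucleus. ASH2L belongs to the enzyme complexes that place methyl groups on lysine 4 of histone H3, a mark found at the promoters of active genes such as these.

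Library totals were 9620235 to 9860475 counts in cKO and 10359475 to 10538314 counts in control libraries. Ash2l (Entrez Gene 23808) had 451, 292 and 214 counts in cKO libraries, against 1933, 1853 and 1624 counts in control libraries. In CPM (counts scaled to library size with TMM factors) that was 32.4 ± 12.6 in cKO and 175 ± 15.6 in control (SD, n = 3 each), a log2 fold change of -2.43 with SE 0.284 and an edgeR adjusted p of 0.00786. The library of cKO replicate 3 stood apart: 1453 genes were at 0 there while every other library had more than 10 counts, against at most 3 such genes in any other library. None of the 161 ribosomal protein genes was among them. Results are therefore also given without that library. Reads of Y-linked genes also differed: Ddx3y had 0 counts in every cKO library, against 953, 1044 and 392 counts in control libraries. Kdm5d and Uty were also at 0 in every cKO library, against 209, 304 and 95 and 371, 446 and 208 counts in control libraries. Eif2s3y was at 0, 0 and 50.3 CPM in cKO libraries, against 72.3, 77.6 and 42.9 CPM in control libraries. In cKO replicate 3, Eif2s3y thus lay inside the control range while the other Y-linked genes were at 0, so the sex of that library is unclear. Sex was not a term of the test. Between the other cKO libraries and the controls, a difference in sex cannot be told apart from genotype. Of 20 ureteric epithelium markers tested, 4 fell and 0 rose, where 3.59% of all tested genes fell. With cKO replicate 3 left out 9 of them were lower, where 14.9% of all genes were. Their summed level was 6706 to 7653 CPM in cKO and 10324 to 11622 CPM in control libraries. The summed stroma and smooth muscle markers were 49.2 to 72.4 CPM in cKO and 18.4 to 34.5 CPM in control libraries. Of 8 tested, Acta2 alone was called and rose, but 4 had positive and 4 negative log2 fold changes, with a median of -0.08. Foxd1 was at 0 in every cKO library. The nephron markers summed to 243.8 to 328 CPM in cKO and 217 to 268 CPM in control libraries. Of 8 tested, 1 rose with edgeR and 4 were called with DESeq2, and without cKO replicate 3 edgeR found 4 higher and 1 lower. Their median log2 fold change was 1.27, with Fgf8 at 0 in cKO and Nphs1 at 0 in control libraries. The endothelial markers summed to 21.3 to 30.8 CPM in cKO and 52.2 to 58.7 CPM in control libraries, with Egfl7 falling as 1 of 2 and Flt1 at 0 in control libraries. Immune markers summed to 59.1 to 103 CPM in cKO and 44.2 to 90.8 CPM in control libraries, and none of 7 was called with edgeR (0 at an unadjusted p under 0.05, and 0 with DESeq2). Erythroid markers summed to 4.70, 36.5 and 0 CPM in cKO libraries, against 2.55, 2.19 and 405 CPM in control libraries, so that control replicate 3 alone was high. Neither of 2 was called with edgeR (0 at an unadjusted p under 0.05, and 0 with DESeq2). Slc4a1 and Ahsp were at 0 in cKO and Hbb-y in control libraries. The part of any of these differences in the ribosomal protein values was not tested, and in sorted bulk cells fewer cells of a type and less RNA per cell cannot be told apart.

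Promoter sequences of the members were read from RefSeq (build GRCm38.p6, whereas the authors' notes name GRCm39), and 131 of the 161 genes had an entry, 62 cytosolic and 69 mitochondrial. For each gene the most upstream start was taken, with 300 bases around it, and 4 strings were searched on both strands. The string CCGGAAG, the core of an ETS-family motif, was in 38.7% of cytosolic and 34.8% of mitochondrial promoters, and in 9.14% of all 27025 promoters in the table. AAGATGGCG, which holds the core of the YY1 motif, was in 6.45% of cytosolic, 11.6% of mitochondrial and 1.48% of all promoters. The NRF1 palindrome of 10 bases, matched exactly, was in 1.61%, 4.35% and 0.981% of these sets, and TATAAA in 12.9%, 5.8% and 14.2%. A run of at least 5 pyrimidines that begins with C within 10 bases of the start, the form of a TOP start, was in 58.1% of cytosolic, 43.5% of mitochondrial and 30.8% of all promoters. Median GC content was 57.5%, 58.3% and 52.7%.

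The windows below run from 70 bases before to 30 after the start, 5′ to 3′ on the gene's strand, with matches to these strings in capitals. Those of Rps27l, chr9:66946016-66946115 (+ strand), Rpl10, chrX:74270746-74270845 (+ strand), and Mrpl44, chr1:79775948-79776047 (+ strand), are shown because these genes passed the test, as did Mrpl4. Those of Rpl22l1, chr3:28805438-28805537 (+ strand), and Rpl7l1, chr17:46782627-46782726 (- strand), are shown as paralogues of core members. That of Mrps18a, chr17:46110934-46111033 (+ strand), is shown because it holds both CCGGAAG and AAGATGGCG.
Rps27l: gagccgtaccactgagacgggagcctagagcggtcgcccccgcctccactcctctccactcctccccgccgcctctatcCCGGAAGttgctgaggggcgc
Rpl10: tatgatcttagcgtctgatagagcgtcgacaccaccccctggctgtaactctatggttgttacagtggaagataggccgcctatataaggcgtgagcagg
Mrpl44: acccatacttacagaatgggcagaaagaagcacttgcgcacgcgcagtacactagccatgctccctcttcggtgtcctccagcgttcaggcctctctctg
Rpl22l1: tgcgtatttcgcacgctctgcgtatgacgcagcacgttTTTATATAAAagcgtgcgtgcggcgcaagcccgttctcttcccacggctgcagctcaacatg
Rpl7l1: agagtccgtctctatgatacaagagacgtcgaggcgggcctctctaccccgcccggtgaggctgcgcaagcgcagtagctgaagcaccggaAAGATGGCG
Mrps18a: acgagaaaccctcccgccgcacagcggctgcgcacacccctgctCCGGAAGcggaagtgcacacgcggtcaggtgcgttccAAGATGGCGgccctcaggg
The Rps27l window has CCGGAAG downstream of its start, Rpl7l1 ends in AAGATGGCG, and Rpl22l1 has TATAAA on both strands in an overlapping run. The windows of Rpl10 and Mrpl44 hold none of the 4 strings. A match is a string in a window and no measurement of binding.

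The question the genotype comparison put to these genes was whether their RNA differed between Ash2l cKO and control cells, and whether the classes differed. Few ribosomal protein genes did. With edgeR's quasi-likelihood test, adjusted over all genes tested, 928 of 13047 genes (7.11%) were called at an adjusted p under 0.05. In the cytosolic class 1 rose, Rps27l, and 1 fell, Rpl10, and 79 of 81 did not pass (2.47% called). In the mitochondrial class 1 rose, Mrpl4, and 1 fell, Mrpl44, and 76 of 78 did not pass (2.56% called). Of all tested genes 3.52% rose and 3.59% fell. At an unadjusted p under 0.05 there were 11 cytosolic (13.6%) and 9 mitochondrial (11.5%) genes, against 23.1% of all tested genes. DESeq2 called 6 cytosolic and 3 mitochondrial genes, against 15.7% of all genes it tested, and limma-voom called 3 and 2, against 7.34%. Each share of members was below that of all tested genes.

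The log2 fold changes of both classes lay close to 0. The median was -0.01 in the cytosolic class (quartiles -0.15 and 0.12), 0.02 in the mitochondrial class (quartiles -0.12 and 0.20) and -0.04 over all tested genes (quartiles -0.49 and 0.38). Signs were split: 38 positive and 43 negative in the cytosolic class, and 40 positive and 38 negative in the mitochondrial class. A log2 fold change of at least 1 was seen in 1 cytosolic gene, Rps2, and 0 mitochondrial genes, against 21.3% of all tested genes. One of at least 0.5 in either direction was seen in 8.64% of cytosolic, 11.5% of mitochondrial and 45% of all tested genes. The median SE of the log2 fold change was 0.124 in the cytosolic and 0.187 in the mitochondrial class, and 0.32 over all tested genes. The 95% interval of the change lay wholly within 2-fold for 75 of 81 cytosolic and 66 of 78 mitochondrial genes, against 37.6% of all tested genes. The interval of the others reached 2-fold or more, so a change of 2-fold in them is not excluded by these data.

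**Figure D1:**
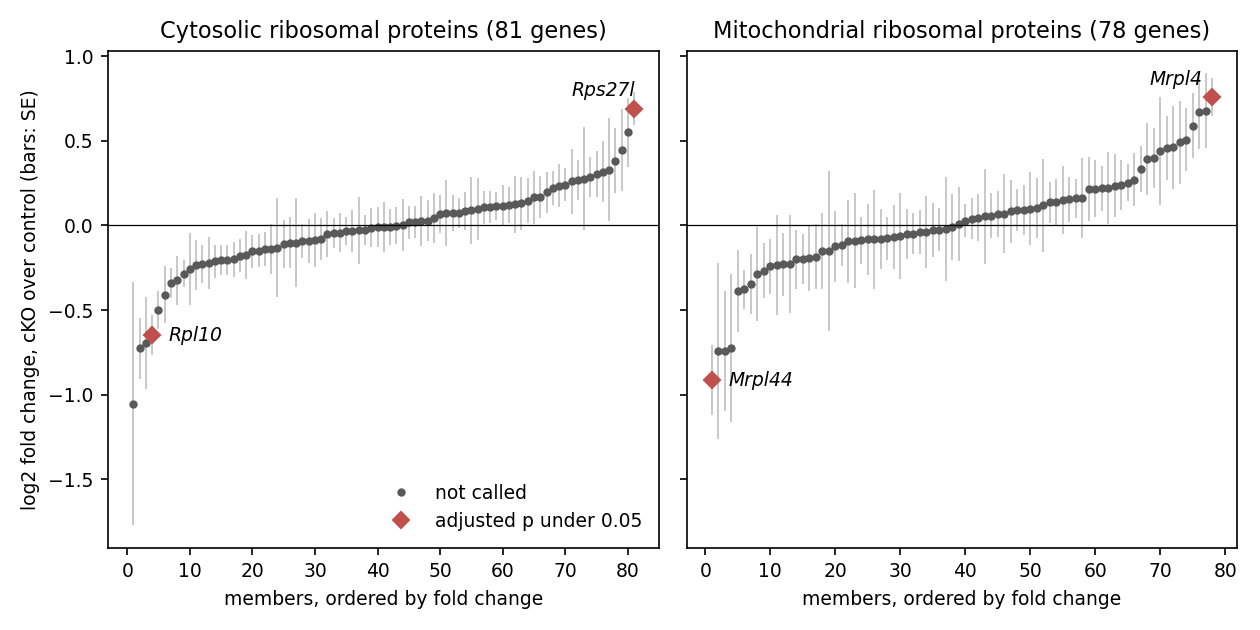
Log2 fold change, cKO over control, of the 81 cytosolic and 78 mitochondrial ribosomal protein genes tested, ordered by fold change, with bars for the SE and red diamonds for genes called at an adjusted p under 0.05. Most points lie near 0, with class medians of -0.01 and 0.02, and the 4 called genes lie at or near the ends.

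Both subunits of each ribosome were covered, with the subunit taken from the symbol alone: Rpl and Mrpl genes as large, the others as small. Whether each protein lies in that subunit of the assembled ribosome was not checked. The 49 cytosolic large-subunit genes had a median log2 fold change of 0.02 with 0 rising and 1 falling, and the 32 small-subunit genes had -0.04 with 1 rising and 0 falling. Among mitochondrial genes, the 49 of the large subunit had a median of -0.02 with 1 rising and 1 falling. The 29 of the small subunit had a median of 0.05, and with edgeR 0 passed the test (3 at an unadjusted p under 0.05, and 0 with DESeq2 or limma-voom).

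The summed RNA of each class was compared next. The cytosolic genes took 1.53, 1.72 and 1.72% of all counts in cKO libraries, against 1.68, 1.69 and 1.61% in control libraries, with means of 1.66 ± 0.109% and 1.66 ± 0.0436% (SD, n = 3 each). The mitochondrial genes took 0.644, 0.671 and 0.615% in cKO libraries, against 0.644, 0.598 and 0.564% in control libraries, with means of 0.643 ± 0.0278% and 0.602 ± 0.0403%. The ranges of the genotypes overlapped in both classes. The cytosolic difference, -0.0042 percentage points, was smaller than either SD, and the mitochondrial difference, 0.0413 percentage points, was slightly larger than both. The ratio of cytosolic to mitochondrial counts was 2.58 ± 0.211 in cKO and 2.77 ± 0.131 in control libraries, and these ranges overlapped too. The median gene of the cytosolic class exceeded that of the mitochondrial class by 1.03, 1.17 and 1.41 log2 CPM units in cKO libraries and by 1.12, 1.29 and 1.21 in control libraries.

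**Figure D2:**
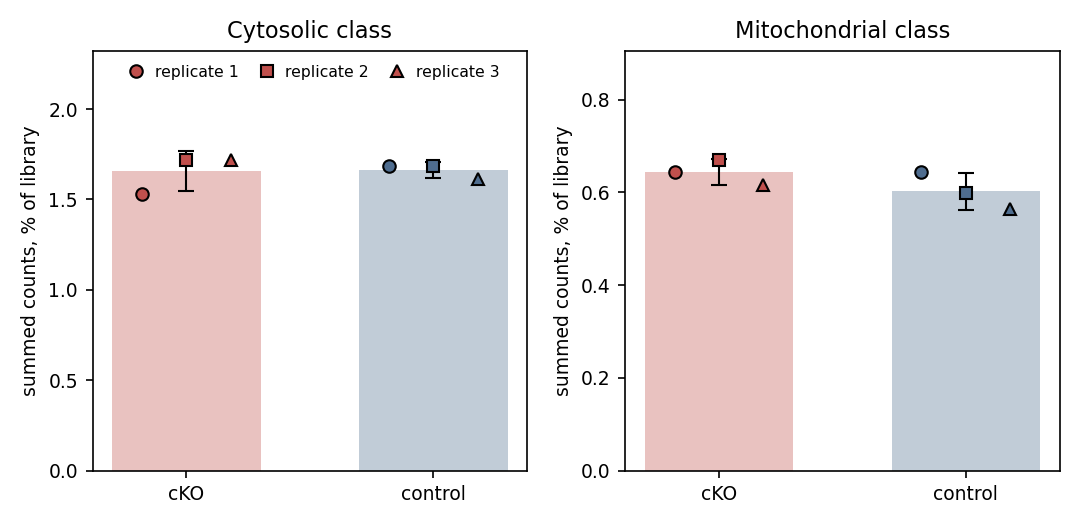
Share of all counts in each library taken by cytosolic and by mitochondrial ribosomal protein genes, in percent, with a point per library, bars at the mean of each genotype and error bars for the SD. The cKO and control points overlap in both classes.

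Rps27l, a paralogue of the small-subunit protein eS27 and a p53 target in mammalian cells, was the cytosolic gene that rose. It had 294, 305 and 300.01 CPM in cKO libraries, against 201, 186 and 171 CPM in control libraries, so that every cKO library lay above every control library. Its mean was 299.7 ± 5.1 CPM in cKO and 186 ± 15.04 CPM in control (SD, n = 3 each), a log2 fold change of 0.69 with SE 0.0954, a 95% interval of 0.46 to 0.92 and an edgeR adjusted p of 0.0115. Leaving out cKO replicate 3 gave 0.68 (edgeR adjusted p 0.000357). The core gene Rps27 had 91.4, 117 and 115 CPM in cKO libraries, against 118, 145 and 114 CPM in control libraries, which overlap.

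Rpl10, the large-subunit protein uL16 that joins late in assembly near the peptidyl transferase centre, was the cytosolic gene that fell. It had 211, 248 and 188 CPM in cKO libraries, against 343, 332 and 339 CPM in control libraries. Its log2 fold change was -0.65 with SE 0.118, a 95% interval of -0.93 to -0.37 and an edgeR adjusted p of 0.027 (-0.57 and 0.00138 when cKO replicate 3 was left out). All 3 cKO libraries lay below all 3 control libraries.

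The mitochondrial gene that rose was Mrpl4, of the large subunit. It had 146, 157 and 175 CPM in cKO libraries, against 93.5, 98.1 and 90.7 CPM in control libraries, a log2 fold change of 0.76 with SE 0.114, a 95% interval of 0.49 to 1.03 and an edgeR adjusted p of 0.0146. The gene that fell, Mrpl44, is also of the large subunit and has an RNase III-like fold. It had 40.1, 39.8 and 27.3 CPM in cKO libraries, against 73.7, 61.5 and 66.7 CPM in control libraries, a log2 fold change of -0.91 with SE 0.206, a 95% interval of -1.40 to -0.42 and an edgeR adjusted p of 0.0486. Leaving out cKO replicate 3 gave 0.68 for Mrpl4 (edgeR adjusted p 0.000611) and -0.76 for Mrpl44 (0.00273). For all 4 genes the libraries of the genotypes do not overlap, as for 37.4% of all tested genes.

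**Figure D3:**
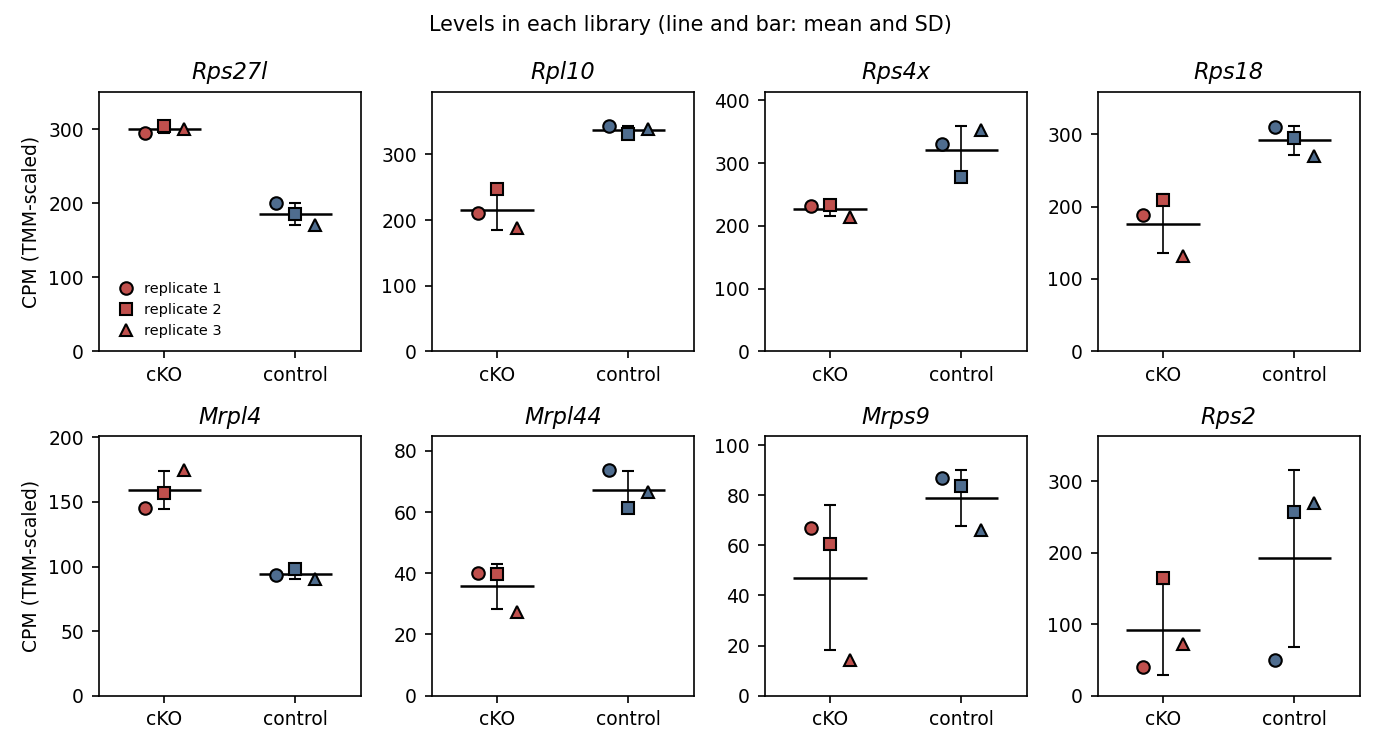
CPM in each library for the ribosomal protein genes that passed the test and others named in the text, cKO libraries left of control libraries, with a line at each mean and bars for the SD. For Rps27l, Rpl10, Mrpl4 and Mrpl44 every cKO library lies on one side of every control library.

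Leaving out any 1 library changed how firmly these genes were called. Of the 6 such fits, Rps27l passed in 3, Rpl10 and Mrpl4 in 2 each and Mrpl44 in 1, with the highest adjusted p at 0.0729 without control replicate 2 for Rps27l, 0.115 without control replicate 3 for Rpl10, 0.0929 without control replicate 3 for Mrpl4 and 0.184 without control replicate 1 for Mrpl44. Their direction did not change in any of these fits, which the lack of overlap between the groups largely fixed in advance. Over all genes tested the calls were also fewer without any library other than cKO replicate 3, at 443 and 240 without cKO replicates 1 and 2 and at 159, 177 and 121 without control replicates 1, 2 and 3.

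Without cKO replicate 3 more members passed, and so did more of all genes, 3897 of 13660 (28.5%, with 13.7% higher and 14.9% lower in cKO). In the cytosolic class 1 rose and 9 fell, 12.3% of 81, and the median was -0.04 against 0.01 over all genes. Those that fell were Rpl10, Rpl22l1, Rpl3, Rpl4, Rpl7l1, Rps18, Rps28, Rps3a1 and Rps4x. In the mitochondrial class 5 rose and 3 fell, 10.3% of 78, with a median of 0.08. Those that rose were Mrpl22, Mrpl28, Mrpl4, Mrps26 and Mrps5, and those that fell were Mrpl23, Mrpl44 and Mrps2. All 4 genes called with 6 libraries were also called without that library, in the same direction.

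Of these, Rps4x lay just outside the threshold with all libraries. It is the X-linked form of the small-subunit protein eS4, and had 232, 233 and 215 CPM in cKO libraries, against 331, 278 and 354 CPM in control libraries, a log2 fold change of -0.50 with an edgeR adjusted p of 0.0502 (0.00807 without cKO replicate 3). Rps18, of the small-subunit head, had 188, 209.7 and 131 CPM in cKO libraries, against 309.6, 295 and 269.9 CPM in control libraries, a log2 fold change of -0.73 with an edgeR adjusted p of 0.0622. Rps3a1, the small-subunit protein eS1, had 261, 276 and 273 CPM in cKO libraries, against 336, 322 and 329.9 CPM in control libraries, a log2 fold change of -0.29 with SE 0.0797 and an edgeR adjusted p of 0.0844. In all 3 genes every cKO library lay below every control library, as in 20.7% of all tested genes.

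Other members called once cKO replicate 3 was left out differed in how that library lay. Rpl3, a protein of the peptidyl transferase centre region, had 252, 329.7 and 369 CPM in cKO libraries, against 398, 389 and 403 CPM in control libraries, and cKO replicate 3 lay nearest the controls. Rpl4, whose product lines the exit tunnel, had 706, 661 and 961 CPM in cKO libraries, against 881, 809 and 812 CPM in control libraries, so that cKO replicate 3 alone lay above the controls. Rps28 had 63.5, 72.6 and 104 CPM in cKO libraries, against 110.4, 90.03 and 86.9 CPM in control libraries, with cKO replicate 3 inside the control range. Among mitochondrial genes, Mrpl23 had 74.997, 83.2 and 72.9 CPM in cKO libraries, against 101, 98.0 and 101 CPM in control libraries, a log2 fold change of -0.38 (edgeR adjusted p 0.11), and the groups did not overlap. Mrps26 had 88.8, 77.6 and 111 CPM in cKO libraries, against 70.5, 58.1 and 44.7 CPM in control libraries, a log2 fold change of 0.68 (edgeR adjusted p 0.124), again without overlap. Mrps2, the mitochondrial counterpart of bacterial S2, had 65.4, 77.9 and 27.6 CPM in cKO libraries, against 98.9, 95.9 and 90.6 CPM in control libraries, a log2 fold change of -0.74 (edgeR adjusted p 0.278). Mrpl22 had 90.6, 91.3 and 61.0 CPM in cKO libraries, against 72.9, 70.1 and 66.2 CPM in control libraries, so that cKO replicate 3 alone lay below the controls.

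The mitochondrial genes with the largest positive changes after Mrpl4 and Mrps26 did not pass in either set of libraries. Mrpl43 had 57.6, 53.2 and 85.4 CPM in cKO libraries, against 38.9, 39.7 and 44.7 CPM in control libraries, a log2 fold change of 0.67 (edgeR adjusted p 0.129). Mrpl30 had 106, 107 and 158 CPM in cKO libraries, against 88.2, 72.4 and 85.9 CPM in control libraries, a log2 fold change of 0.59 (edgeR adjusted p 0.127). In both genes cKO replicate 3 was the highest library and every cKO library lay above every control library, as in 16.7% of all tested genes.

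Many genes had groups that did not overlap in spite of small changes. All 3 cKO libraries lay above the controls for 9 cytosolic genes and below them for 13, together 27.2%, and above for 10 and below for 7 mitochondrial genes, together 21.8%, against 37.4% of all tested genes (16.7% above and 20.7% below). Among the 13 were Rps6, the substrate of the S6 kinases, with a log2 fold change of -0.20 (edgeR adjusted p 0.225), and Rpl3 with -0.32 (0.244). Among the 9 was Rplp0 of the ribosomal stalk, with 701, 699.7 and 786 CPM in cKO libraries, against 672, 666 and 683 CPM in control libraries, a log2 fold change of 0.11 (edgeR adjusted p 0.481). Rpl5 and Rpl11, which bind the 5S ribosomal RNA and can inhibit MDM2, had log2 fold changes of 0.02 and -0.0019 with edgeR adjusted p-values of 0.932 and 0.994. Rpsa, Rps19, Rplp1 and Rplp2 did not pass either.

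**Figure D4:**
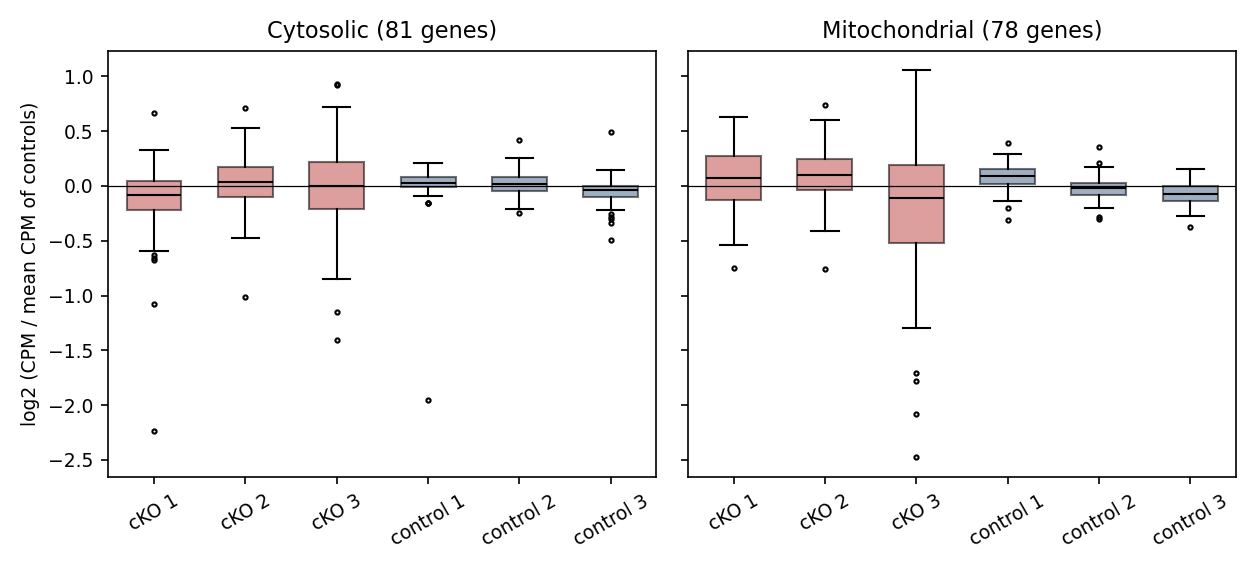
Log2 CPM of each ribosomal protein gene in each library, relative to its mean over the controls, for the cytosolic and the mitochondrial class; control boxes lie near 0 by construction. Boxes show quartiles, lines medians, whiskers the furthest gene within 1.5 box lengths and dots the genes beyond. The mitochondrial box of cKO replicate 3 is the widest and reaches the lowest.

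Few members stood apart in cKO replicate 3. Between cKO replicate 3 and the mean of cKO replicates 1 and 2, 1 of 81 cytosolic genes differed by 2-fold or more, Rpl28, which was higher there, and 5 of 78 mitochondrial genes, all lower there (6.41%), against 5011 of all 13047 (38.4%). The 5 were Mrpl3, Mrpl46, Mrps2, Mrps23 and Mrps9. In every other library, 0 of the 78 mitochondrial genes lay that far from the mean of its group mates. The median log2 ratio of cKO replicate 3 to its mates was -0.19 for mitochondrial genes (quartiles -0.56 and 0.11). It was 0.01 for cytosolic genes and -0.18 over all tested genes (quartiles -1.41 and 0.38). Mrpl46 had 77.6, 76.0 and 19.7 CPM in cKO libraries, against 67.7, 65.1 and 59.5 CPM in control libraries, so that cKO replicate 3 alone was low. Mrpl3 had 50.4, 61.3 and 16.7 CPM in cKO libraries, against 69.6, 71.7 and 70.6 CPM in control libraries, and Mrps9 had 66.9, 60.4 and 14.2 CPM in cKO libraries, against 86.8, 83.7 and 66.0 CPM in control libraries. Rps2 had the largest SE of the 159 tested members, with 40.8, 164.5 and 72.4 CPM in cKO libraries, against 49.6, 257 and 269 CPM in control libraries, and a log2 fold change of -1.05 with SE 0.718 (edgeR adjusted p 0.452). Rps2 and other cytosolic genes have many processed pseudogenes in mouse, and the sources used here do not say how reads matching several places were counted, which leaves their levels uncertain.

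Among paralogue pairs, ratios of FPKM (counts scaled by gene length and library size) were compared, since FPKM allows for gene length. Rpl22l1 to Rpl22 was 2.00, 1.87 and 2.33 in cKO libraries, against 4.67, 5.22 and 5.07 in control libraries. The mean ratio was 2.06 ± 0.235 in cKO and 4.99 ± 0.281 in control, a log2 difference of -1.28 (exact permutation p 0.1 over libraries, two-sided, the smallest this design allows; 0.15 adjusted over 3 pairs). Rpl22l1 itself had 27.5, 28.6 and 51.2 CPM in cKO libraries, against 58.6, 59.2 and 55.8 CPM in control libraries, a log2 fold change of -0.69 (edgeR adjusted p 0.191). It reached -1.05 when cKO replicate 3 was left out (edgeR adjusted p 0.00039). Rpl22 had 66.0, 73.3 and 105 CPM in cKO libraries, against 60.1, 54.3 and 52.8 CPM in control libraries, a log2 fold change of 0.55 (adjusted p 0.172). Rps27l to Rps27 was 0.518, 0.419 and 0.419 in cKO libraries, against 0.274, 0.206 and 0.241 in control libraries, a log2 difference of 0.92 (exact permutation p 0.1, 0.15 adjusted over the 3 pairs). Rpl7l1 to Rpl7 was 0.221 ± 0.0193 in cKO and 0.262 ± 0.0224 in control libraries (exact permutation p 0.2, groups overlap). Rpl7l1, an uL30 paralogue found in ribosome precursors, had 237, 229 and 209.8 CPM in cKO libraries, against 292, 280 and 283 CPM in control libraries, a log2 fold change of -0.34 (edgeR adjusted p 0.0722). The mitochondrial genes Mrps18a, Mrps18b and Mrps18c, grouped here by symbol, had log2 fold changes of 0.07, -0.12 and 0.27 and did not pass. Paralogues of this kind can share reads.

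**Figure D5:**
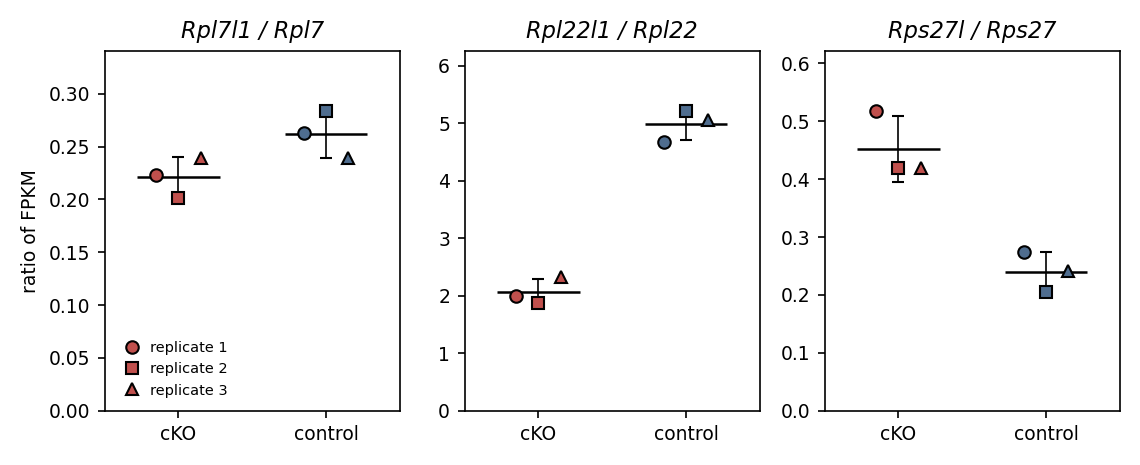
Ratio of paralogue to core gene FPKM in each library for Rpl7l1/Rpl7, Rpl22l1/Rpl22 and Rps27l/Rps27, cKO left of control, with a line at each mean and bars for the SD. The Rpl22l1 ratio is lower in all cKO libraries and the Rps27l ratio is higher in all cKO libraries.

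Of the X-linked members with an entry, Rpl10, Rps4x, Rpl36a and Rpl39, the first 3 had every cKO library below every control library, as had 20.7% of all tested genes. Their log2 fold changes were -0.65, -0.50 and -0.41, and only Rpl10 was called (edgeR adjusted p 0.027, 0.0502 and 0.205). Rpl39 had 0.17 with overlapping groups. These 4 were gathered after their values were seen. The part of the Y-linked difference above in them was not tested. Apart from cKO replicate 3, whose sex is unclear, sex cannot be told apart from genotype in these libraries.

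In level, measured as FPKM averaged over the 6 libraries, the highest cytosolic genes were Rpl13 (964), Rps14 (667) and Rpl35 (615). The lowest cytosolic gene tested was Rps15a (14.8). Mitochondrial genes ran from Mrpl42 (355), Mrpl28 (153) and Mrpl54 (137) down to Mrpl14 (6.06). The low end depends on the gene length used for FPKM and is not the order in reads. Rps15a had means of 74.6 CPM in cKO and 77.3 CPM in control, above Rps12 (FPKM 21.7) with 19.8 and 16.3 CPM. Likewise Mrpl14 had 42.5 and 48.9 CPM, above Mrpl16 (FPKM 26.3) with 27.6 and 32.2 CPM. The neighbours Rps14 and Rpl35 overlapped in cKO libraries, at 669 ± 33.8 and 647 ± 46.0 FPKM, and did not overlap in control libraries, at 666 ± 32.6 and 583 ± 46.2 FPKM (SD, n = 3). Rpl13 had 824, 972 and 1126 FPKM in cKO libraries, against 925, 984 and 952 FPKM in control libraries. Median FPKM was 198 ± 17.4 in cKO and 191 ± 7.42 in control for cytosolic genes, and 58.0 ± 3.52 in cKO and 56.7 ± 3.11 in control for mitochondrial genes.

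Genes around the ribosome were followed in lists set out by function. Their counts are to be read beside all tested genes, of which 3.52% rose and 3.59% fell with 6 libraries, and 13.7% rose and 14.9% fell without cKO replicate 3. Of 51 tested ribosome biogenesis factors 1 rose and 2 fell. Npm1, a nucleolar chaperone, had 464, 429 and 463 CPM in cKO libraries, against 738, 612 and 701 CPM in control libraries, a log2 fold change of -0.60 (edgeR adjusted p 0.0195). Nop58, a core protein of box C/D snoRNPs, had -0.49 (0.0497), and Bop1, a large-subunit assembly factor, had 0.76 (0.0497). The median of the list was -0.06. Without cKO replicate 3, 1 rose and 7 fell, 15.7% of the list against 28.5% of all genes, and the median turned to 0.08. Of 12 RNA polymerase I genes 0 passed with edgeR (1 at an unadjusted p under 0.05, and 0 with DESeq2), and 1 was higher and 1 lower once cKO replicate 3 was left out.

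Of 37 translation factors and other TOP genes, 1 rose and 1 fell. Leaving out cKO replicate 3 gave 3 higher and 6 lower (24.3% called). Fau, whose product is processed into the small-subunit protein eS30, had 134, 146 and 138 CPM in cKO libraries, against 105, 98.9 and 89.3 CPM in control libraries, a log2 fold change of 0.51 (edgeR adjusted p 0.0447). Eif4a1, an RNA helicase of the cap-binding complex, had 501, 445 and 409 CPM in cKO libraries, against 639, 596 and 623 CPM in control libraries, a log2 fold change of -0.46 (0.0442). Rack1, a small-subunit protein also outside the symbol rule, had a log2 fold change of 0.09 (edgeR adjusted p 0.594). Of 25 MYC, TOR and TOP regulators, 3 rose and 0 fell (12% called), and 3 were higher and 2 lower (20% called) once cKO replicate 3 was left out. Mxd4, a MAX partner that opposes MYC, had 27.0, 37.7 and 25.3 CPM in cKO libraries, against 8.05, 8.95 and 6.55 CPM in control libraries, a log2 fold change of 1.93 (edgeR adjusted p 0.0195). Rps6kb2, an S6 kinase, had 1.22 (0.0149), and Rragc, a Rag GTPase, had 0.82 (0.0473). Myc had 405, 354 and 479 CPM in cKO libraries, against 75.8, 208 and 233 CPM in control libraries, a log2 fold change of 1.26 (0.113), which did not pass.

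On the mitochondrial side, of 6 ribosome subunits with other names Dap3 rose (0.56, edgeR adjusted p 0.0285) and 0 fell. Of 24 assembly factors 0 rose and 1 fell, Gtpbp10, a GTPase of large-subunit assembly, with 21.5, 18.5 and 20.6 CPM in cKO libraries, against 50.3, 51.5 and 48.5 CPM in control libraries, a log2 fold change of -1.31 (edgeR adjusted p 0.0124). Of 13 mitochondrial translation factors, with a median of -0.11, 0 passed with edgeR (1 at an unadjusted p under 0.05, and 0 with DESeq2), among them Tufm, the elongation factor Tu, at 0.28 (edgeR adjusted p 0.134). Of 20 genes of mitochondrial genome expression 0 passed with edgeR (4 at an unadjusted p under 0.05, and 2 with DESeq2), among them Nrf1, a transcription factor, at -0.62 (0.0787). Of 19 cytosolic aminoacyl-tRNA synthetases 0 rose and 2 fell, Dars with -0.98 (edgeR adjusted p 0.0298) and Vars with -0.81 (0.0431). Of 17 mitochondrial ones, with a median of -0.05, 0 passed with edgeR (0 at an unadjusted p under 0.05, and 0 with DESeq2). Without cKO replicate 3, edgeR found 1 higher and 1 lower of the 6 other subunits, 3 higher and 1 lower of the assembly factors and 1 higher and 2 lower of the genome expression genes. It also found 0 higher and 3 lower of the cytosolic synthetases, 0 higher and 1 lower of the mitochondrial ones and 0 of the translation factors.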

How the data were processed

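The authors deposited read counts per gene and FPKM values for 6 libraries. Per the labels' protocols, RNA was made into libraries with a stranded mRNA kit. The submitters' processing notes name HISAT2, Cufflinks, HTSeq, DESeq and the build GRCm39. The sources used here do not say whether counting used strand, so overlapping antisense reads may be included. The deposited FPKM values equal the counts rescaled (largest relative deviation 2.21e-07 over 10797 genes) and were used for levels only.

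Counts were tested with edgeR 4.0.16 in R 4.3.3 (robust quasi-likelihood F-test, filterByExpr, TMM factors, genotype as the only term, Benjamini-Hochberg over all 13047 genes, calls at an adjusted p under 0.05). The SE is the log2 fold change divided by the square root of F. Alternatives used DESeq2 1.42.0, limma-voom (limma 3.58.1), other scaling and filters, and each library left out. Intervals of 95% come from the same fit. The fit was tested on simulated counts with 200 changed genes, drawn from control means and the fitted dispersions. No simulated library was made to lose genes as cKO replicate 3 did, so that case was not tested.

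Members and gene lists were chosen with earlier results of these data known. Genes named follow a rule (called members, the highest and lowest levels, paralogue pairs, and the 2 list members with the smallest p), and others were chosen after their values were seen. Rpl10l, Rpl39l and Rps4l were not analysed here, and values of some list genes are not reported here. Of the related-list symbols, 16 were found by synonym.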

Additional observations from a re-analysis of the deposited data

How the results depend on the processing

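The medians of both classes, between -0.04 and 0.08, moved by less than the spread between libraries in every alternative. The shares of counts come from unscaled counts, so another scaling, filter or test could not move them. Genes called over the whole table numbered 2049 with DESeq2, 23 with the replicate block, and 121 to 3897 with a library left out. Called cytosolic genes, 2 in the main analysis, numbered 6 with DESeq2, 4 with at least 10 counts asked of every library, 0 with the replicate block in edgeR (7 at an unadjusted p under 0.05) and 0 to 10 with a library left out (0 without control replicate 2 or 3, with 6 and 7 at an unadjusted p under 0.05). Called mitochondrial genes, 2 in the main analysis, numbered 1 with library totals, 1 with no filter, 0 with the block in edgeR (6 at an unadjusted p under 0.05) and 0 to 8 with a library left out (0 without cKO replicate 2 or any 1 control replicate, with 3 to 11 at an unadjusted p under 0.05). In the main analysis the libraries were not paired by number. Deviations from the group means correlate at -0.02, 0.02 and -0.00 between libraries with the same number. Only cKO replicate 2 correlates best with its own number. The cKO means include cKO replicate 3, which stood apart, so these correlations cannot exclude a pairing.

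Log2 fold changes near 0 turned direction. With library totals they became 0.031 for Rpl13, 0.0078 for Rps14 and 0.019 for Mrpl42. With a library left out, they ranged from -0.13 to 0.081 for Rpl13, from -0.12 to 0.0017 for Rps15a, from -0.095 to 0.094 for Mrpl42, from -0.060 to 0.37 for Mrpl54, from -0.18 to 0.0011 for Rpl7, from -0.14 to 0.27 for Mrps18a, from -0.24 to 0.034 for Mrps18b and from -0.43 to 0.25 for Mrpl46. The erythroid genes Hba-a1 and Alas2 turned to 1.57 and 1.64 with the replicate block, and ranged from -5.88 to 4.11 and from -2.71 to 3.14 with a library left out. The values of 4.11 and 3.14 came without control replicate 3, where the summed erythroid markers were at 405 CPM. The cause was not tested. With 3 libraries per genotype, changes of genes with few counts are the least precise.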
